A study of Mus musculus with 18 samples.

Results

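The mRNAs described here encode the respiratory chain and the ATP synthase of mitochondria. Members were chosen by gene symbol alone. Nuclear members had symbols starting with Nduf, Cox4 to Cox8, Uqcr or Atp5, or were Sdha to Sdhd, without Cox6a2 and without names marked as pseudogenes. Mitochondrial members had symbols starting mt-Nd, mt-Co, mt-Cytb or mt-Atp. This gave 105 of the 38924 genes in the tables, of which 92 are nuclear and 13 are carried by the mitochondrial DNA.

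Ribosome-associated mRNA was sequenced from whole spinal cords of 18 mice aged 8 weeks on a mixed B6;CASTxB6.129 background. All mice carried 1 copy of the RiboTag allele, from which Cre recombinase brings out Rpl22 tagged with haemagglutinin, and tagged ribosomes were pulled down through the tag. The 4 groups were Cre P278KY (Rpl+/-;Chat+/-;P278KY+/-, n = 3), Cre WT (Rpl+/-;Chat+/-, normal Gars, n = 4), NoCre P278KY (Rpl+/-, no Cre, P278KY+/-, n = 6) and NoCre WT (Rpl+/-, no Cre, normal Gars, n = 5). P278KY is a dominant change in Gars, the gene of glycyl-tRNA synthetase, mutated in an inherited motor neuropathy. Cre came from Chat, so that any cholinergic cell of the cord could carry tagged ribosomes, not motor neurons alone. NoCre libraries had no Cre and hold RNA that came through the pulldown without a tag. In such bulk libraries fewer cells of a type and less RNA per cell cannot be told apart.

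The respiratory chain moves electrons from NADH through complex I, or from succinate through complex II, by way of complexes III and IV to oxygen, and complex V uses the resulting proton gradient to make ATP. Complexes I, III, IV and V join subunits from both genomes, and complex II is wholly nuclear. Nuclear members are translated on cytosolic ribosomes, which carry Rpl22, whereas the mRNAs of the mitochondrial DNA are translated inside the organelle on ribosomes that have no Rpl22. Motor neurons, with their long axons, are known for a high demand for ATP.

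Promoter sequence was looked at for the nuclear members because they are a coordinated class whose promoters often bind NRF1, GABPA and YY1 in mammals. RefSeq windows of GRCm38.p6, from 250 bases before to 50 bases after the start, were matched for 73 of the 92 nuclear members and searched on both strands for 3 motifs, none of which holds another: a palindrome for NRF1, whose letters are the capitals in Ndufa11 below, CCGGAAGT for GABPA, and 1 exact form of the YY1 motif. The NRF1 motif was in the window of 7 of the 73 members (9.6%) and 1.07% of the 27025 genes with windows. The GABPA motif was in 5 (6.8%) against 4.31% of all genes, and the YY1 motif in 4 (5.5%) against 0.755%. At least 1 of the 3 was in 16 members (21.9%) and 5.93% of all genes. The other 57 members had no match to these letters in this window. The following 4 stretches, with the motif in capitals, are 60 bases long and wholly before the RefSeq start. They are shown because each belongs to a member on which results below turn, in complexes I, III, IV and V. They lie at chr17:56717677-56717736 (Ndufa11, + strand), chr10:80406854-80406913 (Uqcr11, - strand), chr5:115349086-115349145 (Cox6a1, - strand) and chr5:108434415-108434474 (Atp5k, - strand).
Ndufa11: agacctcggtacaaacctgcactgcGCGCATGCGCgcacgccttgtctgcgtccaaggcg
Uqcr11: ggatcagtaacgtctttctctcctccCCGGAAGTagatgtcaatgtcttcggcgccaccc
Cox6a1: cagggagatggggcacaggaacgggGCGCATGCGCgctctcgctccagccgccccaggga
Atp5k: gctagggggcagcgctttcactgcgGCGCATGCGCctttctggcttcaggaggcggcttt
On GRCm38 (GENCODE M21) the genes of other members described below lie at chr1:63143596-63176833 (Ndufs1, - strand), chr13:74322254-74350280 (Sdha, - strand), chr8:120668222-120674207 (Cox4i1, + strand), chr19:7215153-7217616 (Cox8a, - strand) and chr17:31520115-31531331 (Ndufv3, + strand). The capitals mark the NRF1 motif in Ndufa11, Cox6a1 and Atp5k and the GABPA motif in Uqcr11. In GENCODE M21 the Atp5k gene lies at chr5:108433244-108434448 (- strand), so its start there falls inside the Atp5k stretch. A match of letters is a description of the window and not a measured site.

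Libraries held 8177758 to 24028649 expected counts after rounding, all Cre libraries at least 14659488. Levels are given as CPM, the count divided by the TMM-scaled library total in units of 1e6. Scaling was over all 18 libraries, also for sums over members or markers. Single-gene levels in the direct comparison of Cre P278KY with Cre WT were instead scaled over the 7 Cre libraries. The same library can therefore have 2 values for 1 gene. In Cre P278KY, Gars averaged 273.3 ± 23.1 CPM and Chat 105 ± 12.5 (SD, n = 3), and in Cre WT they averaged 139 ± 29.3 and 121.4 ± 43.9 (SD, n = 4). In NoCre libraries Chat was at 2.88 ± 0.616 (SD, n = 6) in P278KY and 7.89 ± 2.92 (SD, n = 5) in WT. The labels name no sequencing batch. A pair of sets were inferred from index sequences that recur and sample numbers that restart: 10 libraries, called pool 1 here, and 8, called pool 2. Whether they were sequenced apart is not stated. All 3 Cre P278KY libraries were in pool 1, and Cre WT had 2 in each. By Xist and Y-linked transcripts, every pool 1 mouse was male except Cre P278KY replicates 2 and 3, and every pool 2 mouse was female, so that pool and sex cannot be told apart in Cre WT and in both NoCre groups. NoCre P278KY replicate 6 stood apart from its group: the nuclear members held 0.11% of its counts, against 0.321% to 0.472% in the other 5, and the mitochondrial members 6.61%, against 2.24% to 3.9%. On the log2 CPM scale 77 of its 87 tested nuclear members were below the mean of the other 5 libraries (median difference −0.70) and all 13 mitochondrial members above it (2.47), with −0.07 over all genes tested. For Cre P278KY over NoCre P278KY, the medians of all nuclear and all mitochondrial members and their calls are given with and without it. So is the mitochondrial median of NoCre P278KY over NoCre WT. Medians and counts of single complexes in P278KY mice include it. The nuclear medians over all 18 libraries of NoCre P278KY over NoCre WT and of the interaction also include it. Leaving it out of Cre P278KY over NoCre P278KY shifted log2 fold changes by −0.16 to 0.40 for nuclear members (median −0.05) and by 0.20 to 1.05 for mitochondrial members (median 0.79), with no change of sign.

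Across the libraries nuclear and mitochondrial members moved in opposite directions with Cre. Nuclear members held 1.16%, 1.23% and 1.21% of the counts in Cre P278KY and 1.25%, 1.45%, 1.15% and 1.01% in Cre WT. In NoCre P278KY they held 0.11% to 0.472% (median 0.372%) and in NoCre WT 0.323%, 0.275%, 0.406%, 0.199% and 0.303%. Every Cre library was thus above every NoCre library. Mitochondrial members held 0.234%, 0.259% and 0.34% in Cre P278KY and 0.161%, 0.236%, 0.18% and 0.196% in Cre WT. They held 2.24% to 6.61% (median 3.53%) in NoCre P278KY and 3.63%, 2.8%, 1.93%, 1.89% and 1.28% in NoCre WT. Every NoCre library was above every Cre library. The 2 mitochondrial ribosomal RNAs took 1.36% to 4.88% of the counts in Cre libraries and 24.2% to 53.8% in NoCre libraries, and are in the denominator of these shares. Among the counts left without them, a denominator chosen after seeing the data, nuclear members took 1.18% to 1.27% in Cre P278KY libraries and 1.03% to 1.50% in those of Cre WT. The NoCre P278KY libraries had 0.166% to 0.642% and those of NoCre WT 0.430% to 0.595%. Mitochondrial members took 0.239% to 0.358% in Cre P278KY, 0.164% to 0.244% with Cre in WT mice, 3.05% to 9.97% in NoCre P278KY and 2.32% to 5.51% without Cre in WT mice, so that Cre and NoCre libraries did not overlap on this scale either. The ratio of mitochondrial to nuclear member counts was 0.202, 0.211 and 0.281 in Cre P278KY, and 0.129, 0.162, 0.157 and 0.194 in Cre WT. It ran from 4.75 to 60.1 in NoCre P278KY (to 11.1 without replicate 6) and was 11.2, 10.2, 4.75, 9.49 and 4.22 in NoCre WT.

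**Figure D1:**
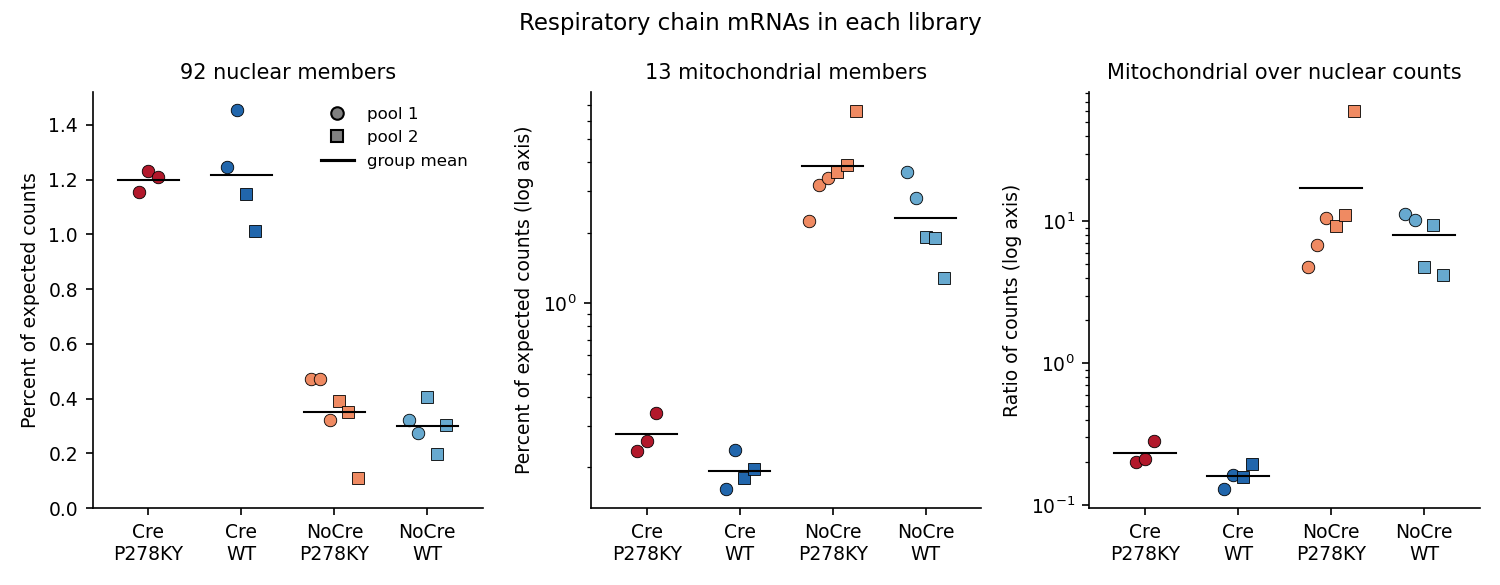
Percent of expected counts held by the nuclear members (left) and the mitochondrial members (middle, log axis) and the ratio of mitochondrial to nuclear counts (right, log axis) in each library, by group, with circles for pool 1, squares for pool 2 and lines for group means. Nuclear members are higher and mitochondrial members lower in all 7 Cre libraries than in all 11 NoCre libraries, and the highest ratio, 60.1, is NoCre P278KY replicate 6.

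In P278KY mice, 79 of the 87 nuclear members tested were higher in Cre P278KY than in NoCre P278KY, 2 were lower and 6 did not pass (edgeR quasi-likelihood test with Benjamini-Hochberg adjustment over 17133 genes, threshold 0.05). Their median log2 fold change was 1.83, beside −0.13 over all genes tested. Of all genes tested, 28.2% were called higher and 31.2% lower. The groups did not overlap for 82 nuclear members, and did not overlap for 56.2% of all genes. All 13 mitochondrial members were lower, with a median of −4.0 and a range of −4.85 to −3.82. Without NoCre P278KY replicate 6 these medians were 1.82 and −3.21, and all 94 calls among the members remained. Within pool 1 the medians were 1.67 and −3.24, again with all 94 calls, while pool 2 has no Cre P278KY library. Beside these, all 10 cholinergic markers were higher in Cre P278KY than in NoCre P278KY, and all 10 oligodendrocyte, 10 microglia and 8 astrocyte markers were lower.

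In WT mice, 80 of the 87 nuclear members were higher in Cre WT than in NoCre WT, none was lower by edgeR or DESeq2, and 7 did not pass. The median was 1.76, beside −0.12 over all genes, of which 28.5% were called higher and 31.2% lower. When libraries were scaled by their totals alone, all genes had a median of 0.20 and the nuclear members one of 2.02. The groups did not overlap for 68 nuclear members, against 43.2% of all genes. All 13 mitochondrial members were lower, with a median of −3.88 and a range of −4.82 to −3.31. The nuclear median was 2.56 within pool 1 and 0.90 within pool 2, with 82 of 87 and 35 of 88 nuclear members called higher, beside 29.2% and 14% of all genes tested in each pool. The mitochondrial median was −3.67 and −4.02, with 13 and 10 called lower. In the NoCre WT group, leaving out replicates 4 and 5 together gave medians of 2.06 and −3.75.

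**Figure D2:**
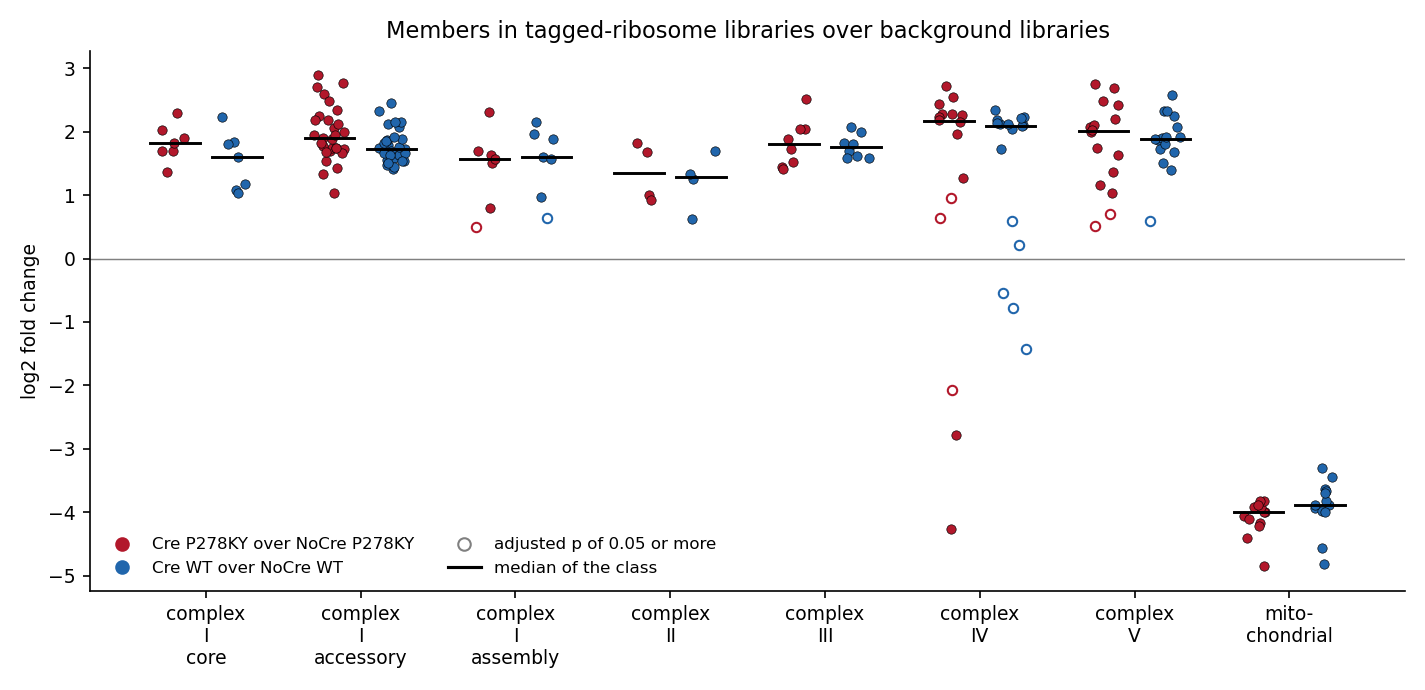
Log2 fold change of each tested member in Cre P278KY over NoCre P278KY (red) and in Cre WT over NoCre WT (blue), by complex, filled where the adjusted p is below 0.05, with lines for class medians. Medians of nuclear classes run from 1.29 to 2.18. Cox4i2, Cox6b2 and Ndufa4l2 of complex IV lie below 0, and some others, such as Ndufaf4 and Atp5sl, between 0 and 1. Mitochondrial members lie between −4.85 and −3.31.

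Complex I has a catalytic core, to which many accessory subunits are added with the help of assembly factors. All 7 nuclear core subunits were higher in both genotypes, with medians of 1.83 in P278KY mice and 1.60 in WT mice. Ndufs1, the large iron-sulfur subunit of the NADH-oxidising arm, had 142.3, 124 and 155.5 CPM in Cre P278KY and 29.8 to 53.3 (median 44.2) in NoCre P278KY. In Cre WT it had 127.3, 102.4, 94.4 and 85.3 CPM, and in NoCre WT 45.9, 48.5, 57.4, 40.2 and 50.3. Neither pair of groups overlapped, and Ndufs1 rose by 1.69 (SE 0.184, adjusted p = 1.78e-07) in P278KY mice and by 1.08 (SE 0.182, adjusted p = 3.54e-05) in WT mice on the log2 scale. Its expected counts were fractional in 12 libraries, a sign of reads shared with another locus, so its level is uncertain.

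All 29 accessory subunits of complex I rose in both genotypes, with medians of 1.90 in P278KY mice and 1.72 in WT mice. Ndufa11, an accessory subunit of the membrane arm, had 105.6, 81 and 149.7 CPM in Cre P278KY and 11.2 to 19.8 (median 15) in NoCre P278KY. It had 158.7, 179.2, 56.3 and 57 CPM in Cre WT and 13.5, 14.8, 13.8, 52.5 and 36.6 in NoCre WT. Neither pair overlapped, but the pool 2 Cre WT libraries lay close to NoCre WT replicate 4. The rise was 2.89 (SE 0.420, adjusted p = 1.56e-05) in P278KY mice, the largest of the nuclear members there, and 2.12 (SE 0.419, adjusted p = 0.000314) in WT mice, where it was 3.6 within pool 1 and 0.72 (adjusted p = 0.213) within pool 2. Of the 7 assembly factors, 6 rose in each genotype. Ndufaf4, the other one, had 14.8, 20.6 and 15.9 CPM in Cre P278KY, against 8.92 to 13.7 (median 13.1) in NoCre P278KY, a log2 difference of 0.49 (95% interval −0.17 to 1.15, adjusted p = 0.187). In WT mice its difference was 0.64 (adjusted p = 0.0796).

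Complex II joins the tricarboxylic acid cycle to the chain, and its 4 members rose in both genotypes, with medians of 1.34 in P278KY mice and 1.29 in WT mice. Sdha, the flavoprotein that oxidises succinate, had 391.7, 370 and 437.2 CPM in Cre P278KY and 120.2 to 239.1 (median 208.9) in NoCre P278KY. It had 331, 311.5, 366 and 292 CPM in Cre WT and 205.7, 189.4, 236.7, 233 and 196.3 in NoCre WT. The groups did not overlap in either genotype. The rises of 1.01 (SE 0.184, adjusted p = 9.48e-05) and 0.62 (SE 0.179, adjusted p = 0.00549) were small beside the median of nuclear members. Within pool 2 the WT value was 0.55 with an adjusted p of 0.133.

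All 8 members of complex III, which passes electrons from ubiquinol to cytochrome c, rose in both genotypes, with medians of 1.80 in P278KY mice and 1.76 in WT mice. Uqcrfs1, the Rieske iron-sulfur protein, had in P278KY mice a mean of 124.1 ± 26.1 CPM with Cre (SD, n = 3) and 29.9 ± 2.71 without it (SD, n = 6). In WT mice its mean was 116.6 ± 39.5 CPM with Cre (SD, n = 4) and 33 ± 7.37 without it (SD, n = 5). Its rises of 2.05 (SE 0.218, adjusted p = 1.27e-07) and 1.82 (SE 0.218, adjusted p = 4.94e-07) had the smallest adjusted p of that complex in P278KY mice. Cyc1 and Cycs, which encode cytochrome c1 and cytochrome c, both rose in both genotypes.

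Complex IV, cytochrome c oxidase, was the class in which members split. Of its 16 tested members 11 rose in each genotype, and those that did not were mostly tissue isoforms. Cox4i1, the widely used form of subunit 4, had 528.9, 428.8 and 688.3 CPM in Cre P278KY and 46.8 to 148.3 (median 123.7) in NoCre P278KY. In Cre WT it had 904.9, 980.4, 379.5 and 368.3 CPM and in NoCre WT 108.5, 114.1, 108.9, 233.6 and 202.4. No groups overlapped, and the rise was 2.28 (SE 0.346, adjusted p = 1.86e-05) in P278KY mice and 2.10 (SE 0.347, adjusted p = 4.14e-05) in WT mice, where it was 3.11 in pool 1 and 1.03 (adjusted p = 0.057) in pool 2.

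Cox4i2, the form of subunit 4 known from lung and other oxygen-sensing tissue, went the other way. It had 0, 0.0815 and 0.0685 CPM in Cre P278KY, 3 counts in all, and 0.522 to 2.33 (median 0.898) in NoCre P278KY, 93 counts. Its ratio was 0.0427 with a 95% counting interval of 0.00865 to 0.129, and the log2 fold change of −4.27 (SE 1.16) had an adjusted p of 0.00351. In WT mice it had 0.0622, 0.412, 0.122 and 0.946 CPM in Cre WT and 0.872, 0.405, 0.0993, 1.59 and 2.43 in NoCre WT, and the groups overlapped (−1.42, adjusted p = 0.161). Without Cre WT replicate 4 the WT value was −2.52 with an adjusted p of 0.0353. Cox6b2, the testis form of subunit 6b, had 0.142, 0.122 and 0.411 CPM in Cre P278KY, 12 counts in all, and 0.671 to 2.08 (median 1.65) in NoCre P278KY, 127 counts. Its log2 fold change there was −2.78 (adjusted p = 0.00123). In WT mice it was −0.78 (adjusted p = 0.222). The difference of these effects between the genotypes did not pass for Cox4i2 (−2.85, adjusted p = 0.446) or Cox6b2 (−1.99, adjusted p = 0.344). Cox6b1, the body-wide form, rose by 2.44 and 2.18.

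Cox6a1, the non-muscle form of subunit 6a, whose promoter stretch with the NRF1 motif is shown above, had 179.2 to 267.5 CPM in Cre P278KY and 36.3 to 56.8 in NoCre P278KY. In WT mice it had 124.3 to 435.9 CPM with Cre and 43.3 to 81.8 without it. Neither pair of groups overlapped, and it rose by 2.23 (adjusted p = 2.05e-06) and 2.09 (adjusted p = 3.87e-06).

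Among the other isoforms, Cox7a2 and Cox8a, the forms found in most tissues, rose in both genotypes (Cox7a2 by 2.26 in P278KY mice and 2.24 in WT mice, Cox8a by 1.27 and 2.12). Cox7a1, the heart and skeletal muscle form, had 2 to 35 counts per library and did not pass (0.96 and 0.21). Cox7a2l, a factor of supercomplex assembly, had 0.64 (adjusted p = 0.066) and 0.59 (adjusted p = 0.0772). Ndufa4, first named as a complex I subunit and now placed in complex IV, rose by 2.54 and 2.22. Its paralog Ndufa4l2, induced by hypoxia, had −2.08 (adjusted p = 0.146) and −0.55 (adjusted p = 0.662). Cox8b, another muscle form, had at most 24 counts in a library, Cox7b2 at most 3, and Cox8c was listed at 0 in all 18, so these 3 were not tested. For Cox4i2, Cox6b2 and Ndufa4l2 it was not tested whether levels near 1 CPM in NoCre libraries came from other cells of the cord.

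Complex V members were grouped by symbols starting Atp5 alone, not by known place in the enzyme. Of the 16 tested, 14 rose in P278KY mice and 15 in WT mice, with medians of 2.02 and 1.89. Atp5d, the delta subunit of the catalytic head, had 234.4, 201.1 and 268 CPM in Cre P278KY and 38.8 to 70.7 (median 56.9) in NoCre P278KY. It had 402.7, 636.6, 199.8 and 260.1 CPM in Cre WT and 64.4, 38.2, 53.6, 73.4 and 84.8 in NoCre WT. The groups did not overlap, and the rise was 2.07 (SE 0.273, adjusted p = 2.12e-06) in P278KY mice and 2.58 (SE 0.277, adjusted p = 1.23e-07) in WT mice. Of the 3 genes for the c subunit, Atp5g1 rose by 2.10 and 2.25 and Atp5g3 by 2.75 and 1.81. Atp5g2 was listed at 0 in 16 libraries, with 18 counts in Cre WT replicate 4 and 9 in NoCre WT replicate 5, and was not tested. Atp5s, a factor linked to ATP synthase coupling, rose in WT mice (1.92, adjusted p = 3.74e-05) and had 0.70 (adjusted p = 0.0645) in P278KY mice, and the difference between these did not pass (−1.21, 95% interval −2.18 to −0.25, adjusted p = 0.30). Atp5sl had 0.51 (adjusted p = 0.28) and 0.59 (adjusted p = 0.197). Atp5l2, with at most 4 counts in a library, was not tested. It is a processed pseudogene in GENCODE M21 and is a member only because its symbol carries no such mark.

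Per length, the same 4 nuclear mRNAs led in all groups. In Cre P278KY, Atp5b of the catalytic head led with 1453 ± 441 CPM per kb of effective length (SD, n = 3), followed by Cox4i1 (1203 ± 287), Ndufa4 (947 ± 279) and Atp5h (785 ± 242). In Cre WT these were at 1928 ± 466, 1443 ± 723, 1017 ± 629 and 813 ± 389 (SD, n = 4). Neighbours among the 4 differed by less than the larger of their SDs, except Atp5b over Cox4i1 in the NoCre groups (707 ± 247 over 247 ± 80.2 in NoCre P278KY and 676 ± 187 over 337 ± 131 in NoCre WT). Expected counts were fractional in 15 libraries for Atp5b, 9 for Atp5h, 6 for Cox4i1 and 0 for Ndufa4. The levels of the first 3 of these, and so the order, are uncertain.

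The mitochondrial members are transcribed as long polycistronic RNAs, 12 of them from 1 strand and mt-Nd6 from the other. mt-Co1, the catalytic subunit of complex IV, had 399.9, 448.4 and 541.6 CPM in Cre P278KY and 5826 to 12020 (median 7018) in NoCre P278KY. It had 297.7, 531, 406.4 and 352.1 CPM in Cre WT and 7136, 8285, 5917, 3618 and 3068 in NoCre WT. Each Cre library lay far below each NoCre library, with log2 fold changes of −4.06 (SE 0.342, adjusted p = 4.65e-09, and −3.85 without NoCre P278KY replicate 6) and −3.82 (SE 0.3, adjusted p = 2.01e-09).

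mt-Nd6, on the opposite strand at positions 13552 to 14070 of the mitochondrial DNA (GRCm38, GENCODE M21), had 56, 49.3 and 108.7 CPM in Cre P278KY and 352.2 to 4687 (median 1062) in NoCre P278KY. It had 52.7, 87.4, 20 and 42.6 CPM in Cre WT and 1371, 980, 278.1, 3595 and 922.8 in NoCre WT. Without replicate 6 the highest NoCre P278KY library was at 1226. The log2 fold changes were −4.40 (SE 1.01, adjusted p = 0.0019, and −3.57 with adjusted p = 0.00164 without replicate 6) and −4.82 (SE 0.913, adjusted p = 0.000426) and the WT value was the lowest of the 13 mitochondrial members there. mt-Nd2, a membrane subunit of complex I, had the lowest value in P278KY mice (−4.85, SE 1.15, adjusted p = 0.00246, and −4.18 with adjusted p = 0.00368 without replicate 6). Its level ran from 741.7 to 14890 CPM among NoCre P278KY libraries and from 622.8 to 11270 among NoCre WT libraries. The 2 mitochondrial ribosomal RNAs, mt-Rnr1 and mt-Rnr2, fell in both genotypes beside them.

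Per kb of effective length the order of the 13 was much alike in the groups at its lower end: mt-Nd4l, mt-Co3 and mt-Nd3 took places 11 to 13 in each. In Cre P278KY mt-Nd4 led with 409 ± 218 CPM per kb, followed by mt-Nd5 (349 ± 194), mt-Co1 (334 ± 51.9) and mt-Nd1 (317 ± 114, SD, n = 3). In Cre WT mt-Co1 led with 286 ± 71.9, followed by mt-Nd4 (258 ± 89.2), mt-Nd1 (221 ± 71.1) and mt-Nd5 (217 ± 106, SD, n = 4). These neighbours differed by less than the larger of their SDs. mt-Nd2 led in NoCre P278KY (6181 ± 5924, SD, n = 6) and in NoCre WT (4572 ± 4906, SD, n = 5), again by less than the spread. Each lead rested on 1 library. Without NoCre P278KY replicate 6, mt-Co1 led there with 4972 ± 509.7 over mt-Nd2 with 4036 ± 3059 (SD, n = 5). Without NoCre WT replicate 4, mt-Co1 led with 4396 ± 1615 over mt-Nd4 with 3065 ± 1437 (SD, n = 4). mt-Nd3 was lowest, at 27.7 ± 7.69, 22.7 ± 15.1, 514 ± 503 and 351 ± 260 CPM per kb in Cre P278KY, Cre WT, NoCre P278KY and NoCre WT. mt-Nd6 was place 8 of 13 in Cre P278KY, 10 in Cre WT, 6 in NoCre P278KY and 3 in NoCre WT, with its own range spanning several places. Without those libraries it was place 7 in NoCre P278KY and 6 in NoCre WT. mt-Atp8 and mt-Nd4l have short effective lengths (57.4 and 141.9 bases) and overlap mt-Atp6 and mt-Nd4, so their levels per length are uncertain. Expected counts were fractional in 15 libraries for mt-Co1 and mt-Co2, 12 for mt-Nd2 and mt-Nd5, and 9 for mt-Nd4l. The levels of these members, and so their places in the order, are uncertain too.

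**Figure D3:**
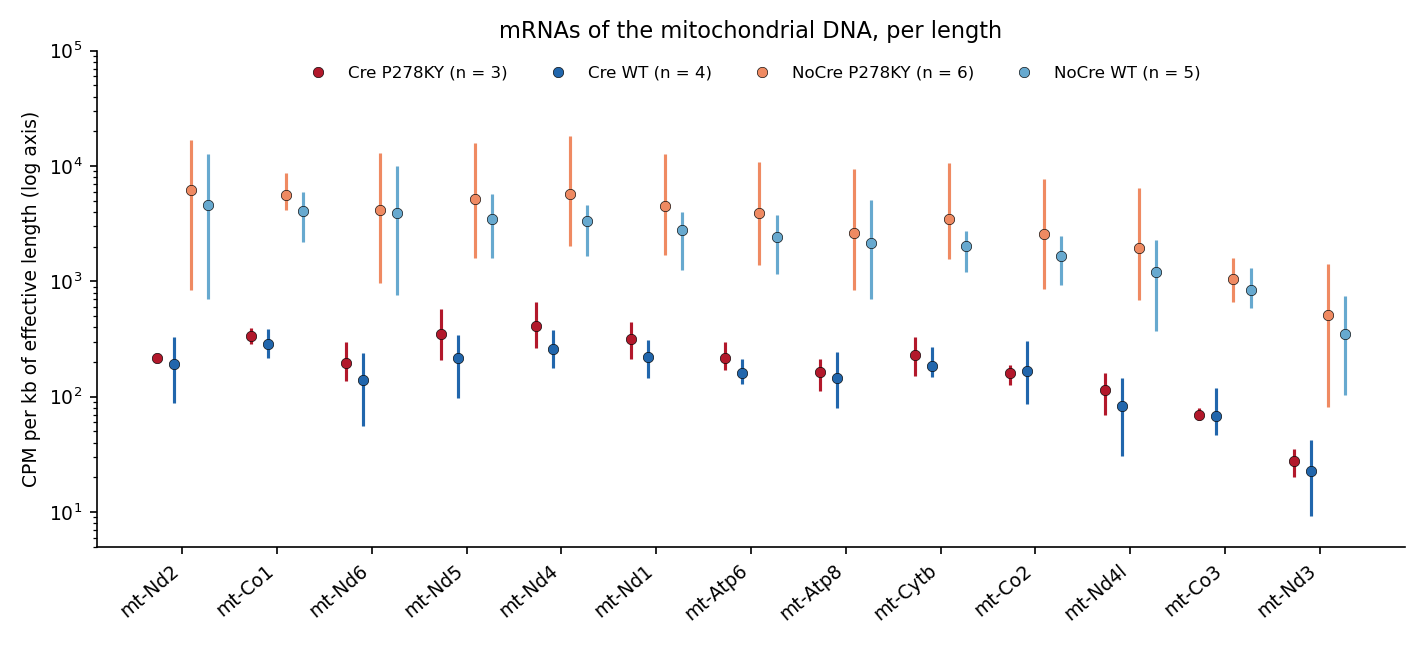
Level of each mitochondrial member in CPM per kb of effective length (log axis) in the 4 groups, with points for the group mean and lines from the lowest to the highest library, ordered by the mean in NoCre WT. All members are lower in both Cre groups than in both NoCre groups, and mt-Nd3 and mt-Co3 are lowest throughout.

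Other genes of mitochondrial supply were described in the same comparisons. Of 76 mitochondrial ribosomal protein genes, 68 were higher and 1 lower in Cre P278KY than in NoCre P278KY (median 1.4), and 67 higher and 1 lower in Cre WT than in NoCre WT (1.52). Mrpl30 rose by 2.11 in WT mice. Of 17 genes of the tricarboxylic acid cycle, 15 rose and 2 fell in each genotype (medians 1.26 and 1.61). Of 16 glycolysis genes, 15 rose in P278KY mice and 14 in WT mice (medians 1.57 and 1.43), and Eno2, the neuronal enolase, rose by 2.08 in WT mice. Complex IV assembly factors had 12 of 19 higher in P278KY mice and 11 of 19 in WT mice. Regulators of mitochondrial biogenesis were mixed, with 1 higher and 2 lower of 9 in P278KY mice and 3 higher and 2 lower in WT mice. Among these, Nrf1 was lower (−1.31, adjusted p = 0.000359) and Esrra higher (1.15, adjusted p = 0.00264) in Cre WT than in NoCre WT.

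For the genotype question in tagged ribosomes, none of 84 nuclear and none of 13 mitochondrial members passed between Cre P278KY and Cre WT by edgeR or by DESeq2, while 2.32% of the 14717 genes tested did. At an unadjusted p under 0.05 there were 3 nuclear members and no mitochondrial member, beside 2378 of all 14717 genes tested. The nuclear median was −0.14, with 24 members above 0 (−0.01 over all genes, and a nuclear median of −0.03 when scaled by library totals alone). The mitochondrial median was 0.35, with 12 of 13 above 0. Class medians were 0.08 for complex I core, −0.22 for complex I accessory, −0.06 for complex I assembly, 0.03 for complex II, −0.13 for complex III, −0.22 for complex IV and −0.21 for complex V.

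The 3 nuclear members with an unadjusted p under 0.05 were Ndufs1 (0.49, 95% interval 0.08 to 0.89, adjusted p = 0.226), Ndufv3 (−0.77, 95% interval −1.44 to −0.11, adjusted p = 0.238) and Cox8a (−0.75, 95% interval −1.48 to −0.02, adjusted p = 0.297). Sdha had 437.6, 405.1 and 464.3 CPM in Cre P278KY and 354.3, 312.9, 393.2 and 333.5 in Cre WT, and was the 1 nuclear member whose groups did not overlap, against 16.7% of all genes. Its difference of 0.32 did not pass (adjusted p = 0.379). mt-Nd4 had 409.9, 355.2 and 855.7 CPM in Cre P278KY and 360.4, 461.4, 231.3 and 284.3 in Cre WT. Cre P278KY replicate 3 was the highest and the other libraries overlapped. The difference of 0.69 (95% interval −0.05 to 1.43) did not pass (adjusted p = 0.348).

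The pools split the Cre WT libraries for the nuclear members. In 74 of the 84, both pool 1 Cre WT libraries were above both pool 2 Cre WT libraries, and in 1 both were below. This split was not counted over all genes, so whether it is particular to these members was not tested. Summed over the nuclear members, Cre P278KY had 10360, 9349 and 12830 CPM, Cre WT 14320 and 17540 in pool 1, and Cre WT 8406 and 8071 in pool 2. The Cre P278KY libraries thus lay between the pools of Cre WT. All 3 Cre P278KY libraries were below both pool 1 Cre WT libraries for 53 of the 84 nuclear members, against 21.1% of all genes. Taken singly, the male Cre P278KY replicate 1 was below both pool 1 Cre WT libraries, also male, for 74 of the 84, and the female replicates 2 and 3 for 70 and 61. These counts for single libraries were not made over all genes, and the part of sex in them was not tested.

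Within pool 1 alone, 17 of the 84 nuclear members were lower in Cre P278KY (n = 3) than in Cre WT (n = 2) and none was higher, while 4.81% of the 14753 genes tested there were called lower and 4.3% higher. The nuclear median was −0.56, with 79 of 84 below 0, beside 0.04 over all genes. With pool as a term in the fit of all 7 libraries, 21 were lower and none higher, which included all of the 17, with 5.95% of all genes called lower and the same median. No mitochondrial member passed in either fit, and their median was 0.10. Of the 17, 9 were accessory subunits of complex I (Ndufa1, Ndufa2, Ndufa3, Ndufa8, Ndufa12, Ndufb4, Ndufc1, Ndufs6 and Ndufv3), 2 were in complex III (Uqcr10 and Uqcr11), 2 in complex IV (Cox7c and Cox8a) and 4 in complex V (Atp5d, Atp5e, Atp5j2 and Atp5k). No core subunit or assembly factor of complex I and no member of complex II passed. The direction turned when the number that the labels share between libraries was a block: 33 nuclear members were then higher and 1 lower (median 0.60), with 5.36% of all genes called higher. That number joins the genotypes only through Cre P278KY replicates 1 and 3, in pool 1, and Cre WT replicates 3 and 4, in pool 2, so that in this fit genotype and pool cannot be told apart.

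**Figure D4:**
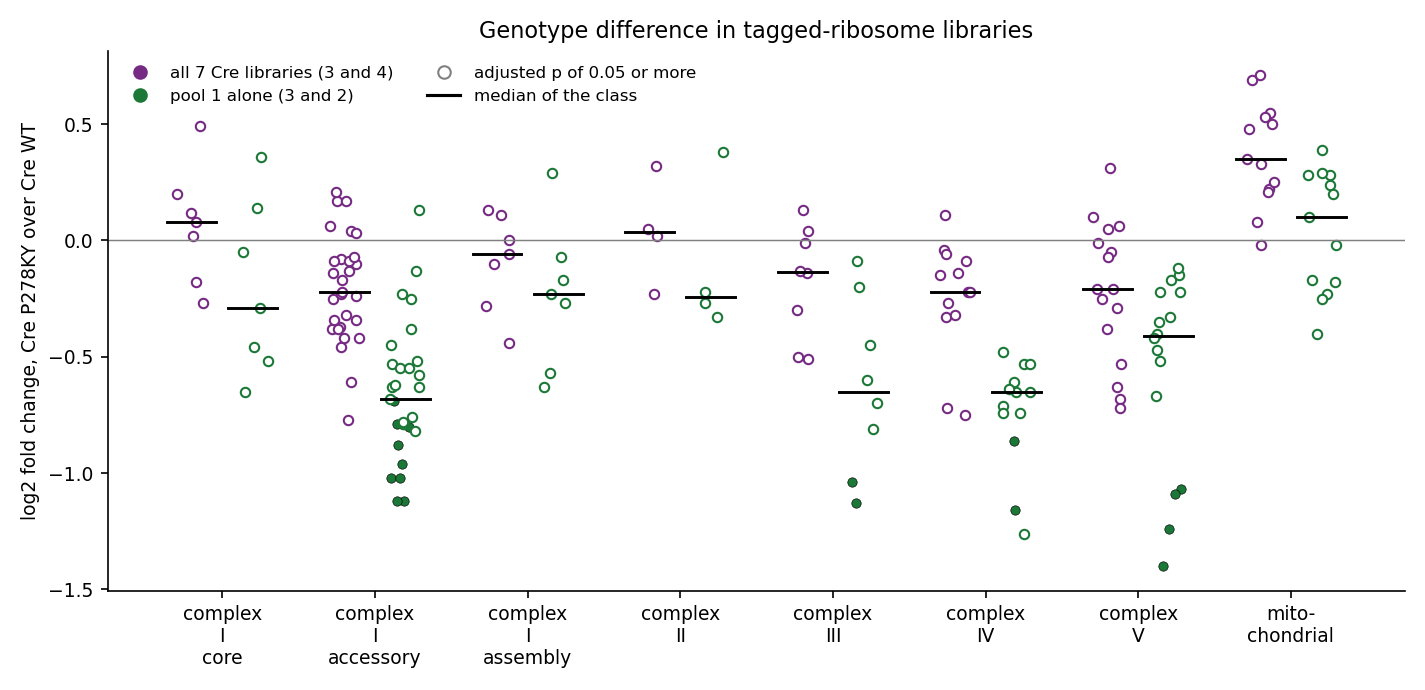
Log2 fold change of each member in Cre P278KY over Cre WT, with all 7 Cre libraries (purple) and with pool 1 alone (green), by complex, filled where the adjusted p is below 0.05, with lines for class medians. With 7 libraries no member is filled, and within pool 1 the 17 filled members all lie below 0 in complexes I (accessory), III, IV and V.

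Atp5k, the e subunit at the membrane part of ATP synthase, had the lowest value within pool 1. It had 90.8, 64.4 and 131.2 CPM in Cre P278KY, 220.7 and 283.4 in pool 1 Cre WT, and 55 and 71.2 in pool 2 Cre WT. Cre P278KY was below the pool 1 Cre WT libraries and overlapped those of pool 2. Its log2 fold change was −0.72 over all libraries (SE 0.575, adjusted p = 0.601) and −1.40 within pool 1 (SE 0.271, adjusted p = 0.0105). Cox8a, a small subunit of complex IV, had 119.5, 102.7 and 116.9 CPM in Cre P278KY, 198.5 and 307.4 in pool 1 Cre WT, and 100.1 and 155 in pool 2 Cre WT, with −1.16 within pool 1 (SE 0.218, adjusted p = 0.00845). Cre WT replicate 3, at 100.1, was the 1 Cre WT library below every Cre P278KY library. Uqcr11, a small subunit of complex III with the GABPA motif shown above, had 48, 34 and 67 CPM in Cre P278KY, 85.2 and 132.3 in pool 1 Cre WT, and 30.7 and 33.5 in pool 2 Cre WT. It lay between the pools, with −1.13 within pool 1 (SE 0.285, adjusted p = 0.0332).

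Ndufv3, an accessory subunit at the NADH-binding tip of complex I, had 15.5, 18.1 and 27.7 CPM in Cre P278KY, 40.6 and 48 in pool 1 Cre WT, and 26 and 24.9 in pool 2 Cre WT. Cre P278KY replicate 3 alone was above the pool 2 Cre WT libraries. Its pool 1 value was −1.12 (SE 0.258, adjusted p = 0.0215). Cox4i1 had 591, 469.5 and 731 CPM in Cre P278KY, 968.5 and 984.7 in pool 1 Cre WT, and 407.7 and 420.7 in pool 2 Cre WT. Cre P278KY lay between the pools, with −0.71 within pool 1 (SE 0.213, adjusted p = 0.0583) and an adjusted p of 0.0395 with pool as a term. Ndufs1 kept a positive value within pool 1 (0.36, adjusted p = 0.308), as did Sdha (0.38, adjusted p = 0.233).

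**Figure D5:**
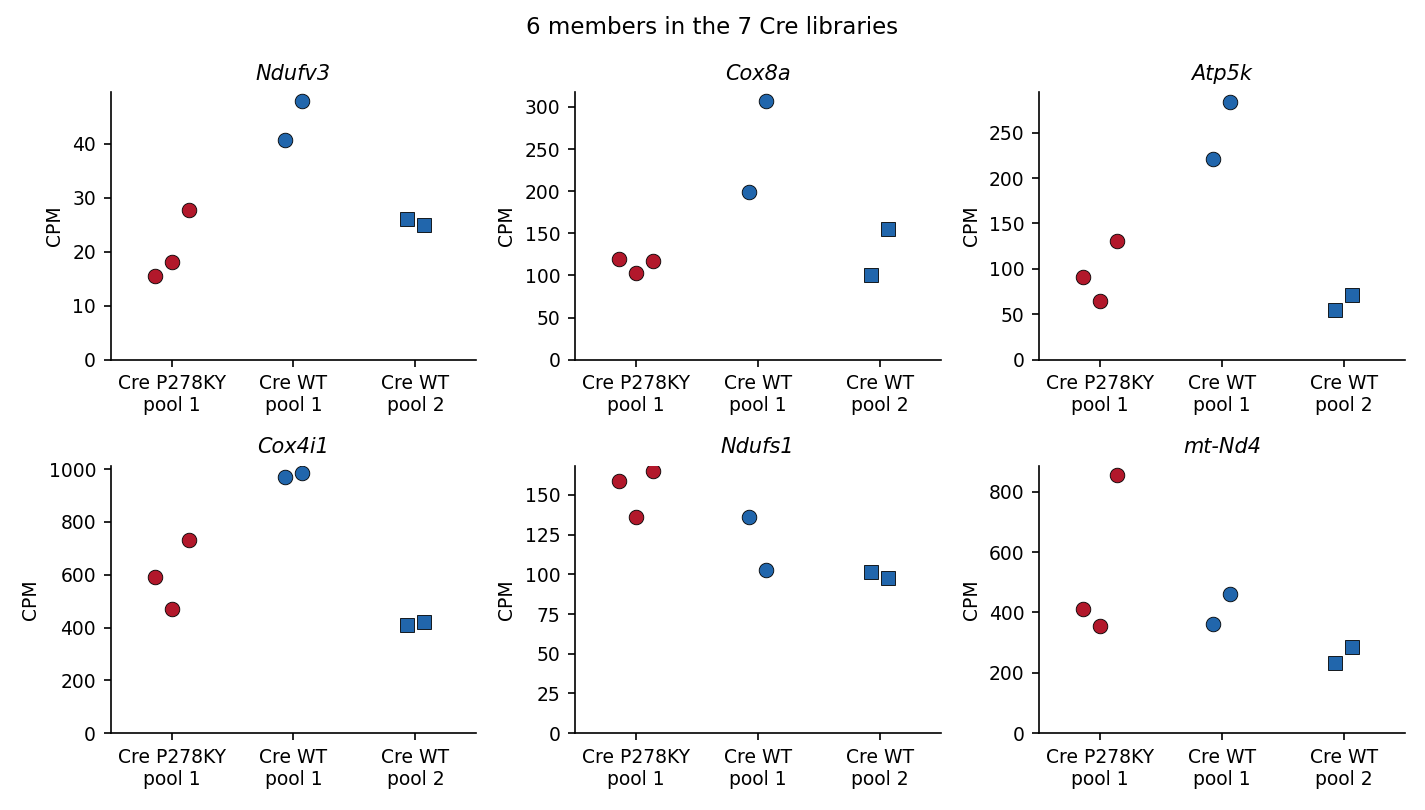
CPM of 6 members in the Cre libraries, scaled over the 7 Cre libraries, as single points for Cre P278KY (pool 1), Cre WT in pool 1 and Cre WT in pool 2. For Ndufv3, Cox8a, Atp5k and Cox4i1 all Cre P278KY points are below the pool 1 Cre WT points, while Ndufs1 and mt-Nd4 overlap pool 1 Cre WT or lie above it.

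Marker levels differed among the same libraries. The 10 cholinergic markers summed to 2119, 1967 and 1667 CPM in Cre P278KY, 3357 and 3080 in pool 1 Cre WT, and 2080 and 1875 in pool 2 Cre WT. Within pool 1, 3 of the 10 were called lower, with 6 below 0, 4 above 0 and a median of −0.40. Over all 7 Cre libraries 5 of the 10 were above 0, with a median of −0.07, so the markers did not move as 1 set. The 10 oligodendrocyte markers summed to 718.2, 846 and 1803 CPM in Cre P278KY, 763.2 and 1215 in pool 1 Cre WT, and 3855 and 4270 in pool 2 Cre WT. None of these passed within pool 1 (median −0.07). The 8 astrocyte markers summed to 182.4, 245.7 and 497.8 CPM, against 160.6 and 270.9 in pool 1 Cre WT and 980.6 and 730.7 in pool 2 Cre WT. Messages of the members called in pool 1 were short, with a median effective length of 409.3 bases, against 673.4 for the other 67 nuclear members tested. Over all 84, Spearman's rho of the 7-library fold change with length was 0.44, a description across genes of the same libraries. Over the 87 members of the other fits rho was 0.57 for NoCre P278KY over NoCre WT, −0.35 for Cre P278KY over NoCre P278KY and −0.24 for Cre WT over NoCre WT. The part of these markers, of sex and of length in the genotype values was not tested. The 10 skeletal muscle markers summed to 11.4, 5.83 and 5.76 CPM in Cre P278KY, 23.3 and 132.8 in pool 1 Cre WT, and 27.6 and 23.6 in pool 2 Cre WT. Within pool 1, mitochondrial ribosomal protein genes had 11 of 76 lower (median −0.43), the tricarboxylic acid cycle 0 of 17 (−0.07) and glycolysis 1 of 16 (−0.18).

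In the NoCre libraries no member passed between NoCre P278KY and NoCre WT by edgeR, where 0.0233% of all genes did. An unadjusted p under 0.05 was found for 8 nuclear members and no mitochondrial member, beside 1160 of all 17133 genes tested. DESeq2 called no member either. The nuclear median was −0.31, and 0.19 when scaled by library totals alone, where all genes had a median of 0.35 in place of −0.01. It was 0.19 within pool 1 and −0.69 within pool 2. The mitochondrial median was 0.56 with NoCre P278KY replicate 6 and −0.11 without it, −0.22 within pool 1 and 1.17 within pool 2. Atp5s had the smallest p of the members, with 3.48 to 10.3 CPM (median 7.81) in NoCre P278KY and 4.1, 4.65, 5.26, 1.19 and 4.11 in NoCre WT. These groups overlapped through replicate 6, and the difference of 0.95 did not pass (adjusted p = 0.667).

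The interaction asked whether the enrichment by Cre differed between the genotypes. No member passed by edgeR or DESeq2, while edgeR called 0.654% of all genes. 4 nuclear members (Cox4i2, Cox6b2, Ndufs1 and Atp5s) and no mitochondrial member had an unadjusted p under 0.05, beside 1904 of all 17133 genes tested. The nuclear median was 0.13, and −0.23 when scaled by library totals alone, where all genes had a median of −0.32 in place of −0.02. Within pool 1 the nuclear median was −0.78, with 81 of 87 below 0, beside 0 over all genes. There 9 of the 87 were called, all with a smaller enrichment in P278KY mice, beside 1.2% of all genes called in that direction. These were Atp5d, Atp5e, Atp5j, Atp5j2, Atp5k, Cox8a, Ndufa12, Ndufb4 and Uqcr10, of which 8 were also among the 17 lower in Cre P278KY within pool 1. Both counts use the same Cre libraries. Cox8a had the largest difference among the 9, −1.97 (SE 0.309, adjusted p = 0.00275). With pool as a term none passed.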

How the data were processed

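The authors deposited 1 table per library of expected counts per gene, with effective lengths, per the file headers; per the submitters' processing notes Bowtie2 2.2.0 and RSEM 1.2.12 were used. For build, annotation and strand setting of counting: not given in the sources used here. Expected counts were rounded to whole numbers. Of the 105 members, 26 had fractional expected counts in at least 9 libraries (tolerance 0.01), a sign of reads shared between loci, and their values are uncertain. PCR reads without molecular identifiers are not independent molecules, so counting intervals cover counting error only.

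The Cre P278KY and Cre WT comparison was fitted on the 7 Cre libraries, and the other 4 comparisons on all 18 libraries, with the two-sided quasi-likelihood test of edgeR 4.0.16 (R 4.3.3). Genes were kept by filterByExpr, libraries scaled by TMM, dispersions fitted robustly and p-values adjusted by Benjamini-Hochberg across the genes of each fit (threshold 0.05). DESeq2 1.42.0 was an alternative. All p-values of single genes are from these fits. Others were RLE scaling, scaling by library totals, other count filters, single pools, pool as a term, the shared label number as a block, and leaving out libraries. The tests were checked on simulated data. CPM per kb uses the deposited effective length.

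Groups came from genotype labels. Replicate numbers follow accession order and only name mice. The labels carry 7 distinct numbers over the 18 libraries, shared within and between groups, each followed by a final number of its own. They are read as separate mice, but nothing says so outright, so p-values measure the spread between these libraries. Shares of counts without mitochondrial ribosomal RNA and levels per kb without single libraries were added after seeing the data. Members and gene lists were chosen with earlier results of these data known. Named genes were, for each class and comparison, those with the smallest adjusted p, the extreme fold changes and the highest levels, plus tissue isoforms, all mitochondrial members and every member called against the majority; members called within pool 1 were named after their values were seen. Promoter windows are from RefSeq (GRCm38.p6) and gene coordinates from GENCODE M21 (GRCm38), matched by gene ID.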

Additional observations from a re-analysis of the deposited data

Results flagged for a closer look

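In groups of 4 to 10 libraries the highest or lowest library was set against its nearest neighbour, and 8 of 75 pairs of group and measure had a gap past Dixon's 95% critical value, where chance gives about 1 in 20. In NoCre P278KY, 5 of the 8 were replicate 6. Its ratio of mitochondrial to nuclear member counts was 60.08, against 11.08 in the nearest library. It had 12020 CPM of mt-Co1 (nearest 7793), 22450 of mt-Nd4 (nearest 5254), 4687 of mt-Nd6 (nearest 1226) and 4066 of mt-Co2 (nearest 1088). NoCre P278KY replicate 1 had 35.14 CPM of Uqcrfs1 (nearest 30.47). NoCre WT replicate 4 had 1.592 CPM of Cox6b2 (nearest 1.113) from 8 counts, and 1.194 CPM of Atp5s (nearest 4.1).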

How the results depend on the processing

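None of the 93 member calls in WT mice or 94 in P278KY mice of the enrichment comparisons changed sign under any alternative run. Pool 2 alone called 45 of the 93 (35 nuclear members, 4955 of all genes). Scaling by library totals kept 90 of the 94, without Sdhd, Ndufv3, Ndufaf7 and Atp5b. A filter at a mean CPM of at least 1 lost Cox4i2. Atp5b was lost without Cre P278KY replicate 2 and Ndufv3 without Cre P278KY replicate 3. Ndufaf6 was lost without Cre WT replicate 2, and without NoCre WT replicates 4 and 5 together. The WT value of Cox4i2 passed without Cre WT replicate 4. For Cre P278KY over Cre WT, 0 nuclear members became 17 within pool 1 and 21 with pool as a term, all lower, while all genes called were 1343 and 1676, against 972 by DESeq2 and 148 when scaled by library totals. With the shared label number as a replicate block 34 nuclear members (33 higher, 1 lower), 4 mitochondrial members and 1664 genes were called, with a nuclear median of 0.60. What that number marks is not given, and number and pool are mixed in these 7 libraries. Leaving out 1 library gave 95 to 324 genes and no member. For NoCre P278KY over NoCre WT all genes called were 28 by DESeq2, 2 when scaled by library totals and 2 within pool 2. With the replicate block 2 genes were called, and the mitochondrial median was 1.51, with 13 of 13 above 0 but none called. That fit included NoCre P278KY replicate 6. Label numbers shared by NoCre libraries of both genotypes also join libraries of different pools. All genes called were 2 without NoCre WT replicates 4 and 5, and 2 to 6 when leaving out 1 library. For the interaction they were 382 by DESeq2, 5 when scaled by library totals, 406 within pool 1 with 9 nuclear members, and 41 to 250 when leaving out 1 library. The cause of these changes was not tested. Members with few counts, such as Cox4i2 and Cox6b2, are limited by depth.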
